A study of Mus musculus with 4 samples.

Results

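The 10 transcription factor genes described here, *Cebpa*, *Cebpb*, *Cebpd*, *Cebpe*, *Cebpg*, *Spi1*, *Gfi1*, *Gfi1b*, *Klf4* and *Egr1*, were taken by gene name from the 39186 genes of the deposited expression table, and each matched a single row. They were measured by RNA sequencing in LSK cells of the mouse fetal liver. These lack lineage antigens, carry Sca-1 and c-Kit, and form the fraction that is enriched for hematopoietic stem cells and multipotent progenitors. The comparison was between 2 *Pich*-KO samples, which carry a small TALEN deletion at the start of the second exon of the X-linked *Pich* gene, and 2 *Pich*-WT samples, all from C57BL/6 embryos. PICH is a DNA translocase that acts on the thin DNA bridges between separating chromosomes. The study asked how the loss of PICH alters gene expression in these cells. The embryonic day of these libraries is not given in the labels, and the sorting methods describe mid-gestation livers. The sources used here do not say whether the samples of a group came from separate embryos or pools. The *Pich*-WT samples differed in sex by their Y-linked reads and so were not repeats of 1 source. For the *Pich*-KO samples this is not given, and their part of the spread behind the p-values may be technical.

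Myeloid cells arise from multipotent progenitors under a small set of transcription factors. PU.1, encoded by *Spi1*, and C/EBPα, encoded by *Cebpa*, open the granulocyte and monocyte program, C/EBPε drives the late granule genes of neutrophils, and KLF4 and EGR1 are tied to monocyte differentiation. GFI1 and GFI1B are zinc finger repressors, the former used in stem cells and granulocytes and the latter in erythroid cells and megakaryocytes. C/EBPβ and C/EBPδ are induced in inflammation and are abundant in mature myeloid cells, and C/EBPγ lacks an activation domain and acts mainly as a partner of other bZIP proteins.

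The values are normalized counts, reads on a gene divided by one size factor per sample, and a library held 14703215 to 20933919 reads on genes. *Ercc6l*, the listed name of *Pich*, was counted at 1142 and 1232 in the *Pich*-KO samples and at 772 and 661 in the *Pich*-WT samples. A small deletion leaves transcripts that are still counted, so these values do not check the genotype labels. *Pich*-WT sample 2 had 0 reads on 4 Y-linked genes and 699 reads on *Xist*, and the other libraries had 1607 to 2848 and 4 to 13, so 1 library differed from the others in sex. Of the marker genes listed for LSK cells, *Kit* and *Cd34* were present in every sample at normalized counts of 2328 to 4447 and 6226 to 11420. *Cd34* is not part of the LSK gate. *Ly6a*, which encodes Sca-1, was 3586 and 2978 in *Pich*-KO against 901 and 1061 in *Pich*-WT samples. Markers of mature cells were also present. The 15 macrophage markers, among them *Adgre1*, *C1qa* and *Timd4*, summed to 3533 and 3054 in *Pich*-KO against 60533 and 66124 in *Pich*-WT samples. The 8 endothelial markers summed to 2884 and 1662 against 37281 and 25268. The lineage antibodies named in the sorting methods cover T, B, granulocyte and erythroid antigens and name no macrophage or endothelial antigen. LSK cells were also gated on Sca-1 and c-Kit. The source of the macrophage and endothelial markers in the sorted samples was not tested. In bulk RNA, fewer cells of a type and less RNA per cell cannot be told apart.

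Of the 10 factor genes, 6 were lower in *Pich*-KO LSK cells, 0 were higher and 4 did not pass an adjusted p of 0.05 from limma with Benjamini-Hochberg adjustment. The 6 were *Cebpb*, *Cebpa*, *Klf4*, *Gfi1*, *Egr1* and *Cebpg*, and *Spi1*, *Gfi1b*, *Cebpd* and *Cebpe* did not pass. At an unadjusted p under 0.05 limma gave the same 6 genes, against 9294 of all 32428 genes tested, in either direction. With TMM scaling on the recovered reads, edgeR also called 6 of the 10 lower and 0 higher. Its unadjusted p was under 0.05 for 6 of the 10, against 8182 of the 16608 genes it tested, in either direction. Over all 32428 genes tested with limma, 9.6% were lower and 7.58% were higher at an adjusted p under 0.05. Many of these genes had few reads. Among the 13924 genes with at least 10 reads in every sample, limma called 3135 lower and 2937 higher, and the same fit called 6 of the 10 factors lower. The median log2 fold change, *Pich*-KO minus *Pich*-WT on the log2(value + 1) scale, was −0.87 over the 10 genes and 0.03 over all genes. Both *Pich*-KO samples lay below both *Pich*-WT samples for 6 of the 10 genes, against 27.2% of all genes tested, and above them for 1, *Spi1*, against 28.9%. Among the 1319 tested genes that the table assigns to a transcription factor family, 114 were higher and 213, or 16.1%, were lower.

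These calls rest on few samples. Without *Pich*-KO sample 1, 1 of the 6 genes passed, *Cebpa*, with an adjusted p of 0.0397 from limma. Without any one of the other libraries, *Pich*-KO sample 2, *Pich*-WT sample 1 or *Pich*-WT sample 2, 0 of the 10 passed, and in those fits limma called 0 of all genes, with 5716 to 7572 genes and 5 or 6 of the 10 factors at an unadjusted p under 0.05. The 6 log2 fold changes stayed negative in each of these fits. When the prior variance did not follow the mean level, limma also called 0 genes, with 7377 genes at an unadjusted p under 0.05, 5 of the 10 factors among them.

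**Figure D1:**
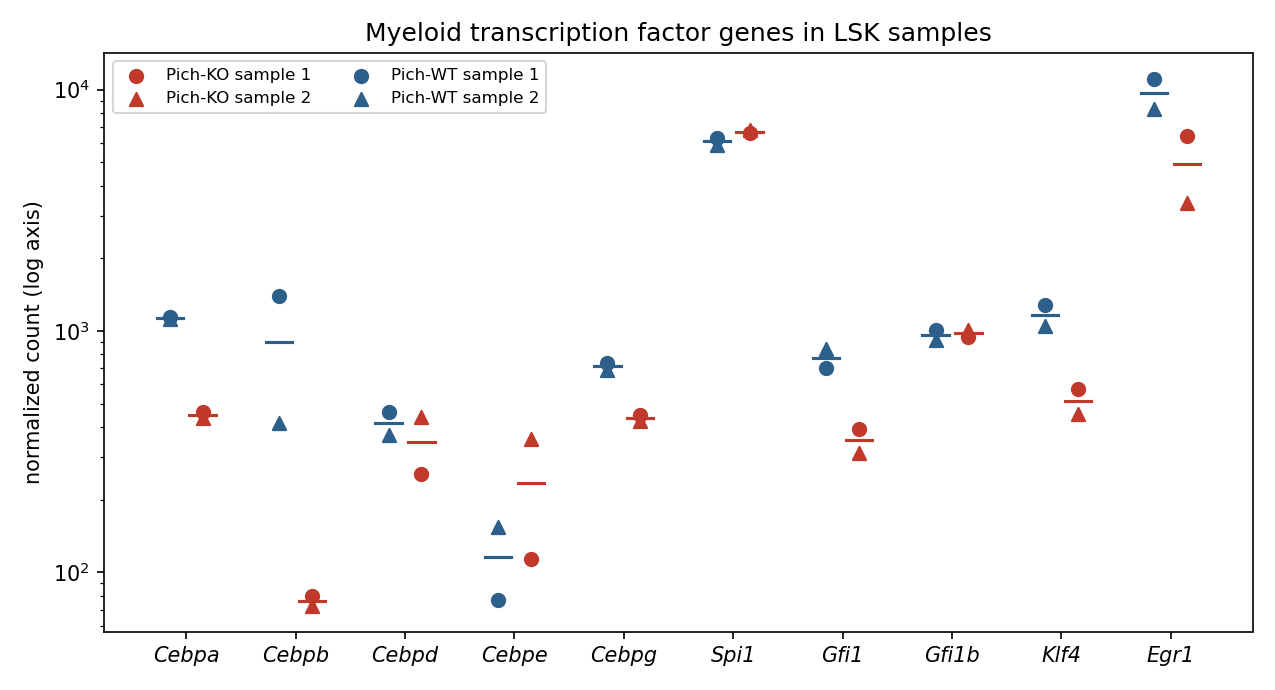
Normalized counts of the 10 myeloid factor genes on a log axis, with a point for each sample (red, *Pich*-KO; blue, *Pich*-WT; circles, sample 1; triangles, sample 2) and a line at each group mean. The red points lie below both blue points for *Cebpa*, *Cebpb*, *Cebpg*, *Gfi1*, *Klf4* and *Egr1*, and the groups overlap for *Cebpd*, *Cebpe* and *Gfi1b*.

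*Cebpa* (ENSMUSG00000034957), the founding C/EBP factor of granulocyte and monocyte commitment, lies at chr7:35119293-35121928 on the plus strand of GRCm38. Its normalized counts were 462 and 438 in *Pich*-KO samples 1 and 2 and 1138 and 1122 in *Pich*-WT samples 1 and 2. The samples of each group were close to each other and the groups were far apart. The mean was 450 ± 17.6 (SD, n = 2) against 1130 ± 11.2 (SD, n = 2), 2.51-fold lower, with a log2 fold change of −1.33 (standard error 0.13, 95% interval −1.64 to −1.02, adjusted p = 0.000474 from limma).

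*Cebpb* (ENSMUSG00000056501), an inflammation-induced factor that is abundant in macrophages, had the largest fall of the 10. It is a single-exon gene at chr2:167688915-167690418 on the plus strand. Its normalized counts were 79.6 and 72.8 in *Pich*-KO against 1390 and 417 in *Pich*-WT samples. Both *Pich*-WT samples were above both *Pich*-KO samples, but they differed 3.33-fold from each other. The log2 fold change was −3.31 (standard error 0.48, 95% interval −4.41 to −2.21, adjusted p = 0.00239 from limma), and it was −2.44 without *Pich*-WT sample 1 and −4.17 without *Pich*-WT sample 2. Of its span, 60.4% overlaps *Tmem189* on the opposite strand, which had normalized counts of 816 and 553 in *Pich*-KO against 1181 and 996 in *Pich*-WT samples. The strand setting of the count is not given in the sources used here and the labelled kit does not mark strand, so reads of the shared stretch cannot be told apart. Summed macrophage markers fell with *Cebpb*, and the log2 ratio of *Cebpb* to that sum was −5.45 and −5.37 in *Pich*-KO against −5.44 and −7.31 in *Pich*-WT samples. These ratios overlapped between the groups (exact two-sided permutation p = 0.667). *Cebpb* was the only one of the 10 factors whose ratio to the macrophage sum overlapped. That sum fell 19.2-fold, more than any of the 10, so a gene that fell less has a higher mean ratio in *Pich*-KO through the sum alone. The overlap therefore does not single out *Cebpb*, and the part of macrophage RNA in its fall was not tested.

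*Cebpg* (ENSMUSG00000056216), the bZIP partner without an activation domain, lies 62720 bases from *Cebpa* on chromosome 7 and is transcribed from the minus strand. It had normalized counts of 449 and 423 in *Pich*-KO against 738 and 687 in *Pich*-WT samples. The groups did not overlap, and the fall was smaller than that of *Cebpa*. The log2 fold change was −0.71 (standard error 0.15, 95% interval −1.05 to −0.37, adjusted p = 0.0129 from limma). *Pepd*, the prolidase gene on its other side, also fell, with 1498 and 1483 against 2246 and 2121 and a log2 fold change of −0.55 (adjusted p = 0.00952 from limma).

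*Cebpd* (ENSMUSG00000071637), a single-exon acute-phase gene at chr16:15887286-15891031, had normalized counts of 255 and 439 in *Pich*-KO against 462 and 371 in *Pich*-WT samples. The *Pich*-KO samples lay on both sides of *Pich*-WT sample 2, so the groups overlapped. Its log2 fold change was −0.31 (95% interval −0.92 to 0.31, adjusted p = 0.522 from limma), and it turned to 0.08 without *Pich*-KO sample 1. Of its span, 48.3% overlaps *Spidr* on the opposite strand, a DNA repair scaffold gene with normalized counts of 997 and 867 against 828 and 737, with the same limit on strand.

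*Cebpe* (ENSMUSG00000052435), the factor of the late neutrophil granule program, lies on chromosome 14 and was the lowest of the 10 in *Pich*-WT samples. Its normalized counts were 113 and 356 in *Pich*-KO against 76.6 and 154 in *Pich*-WT samples, from 98 to 313 reads. *Pich*-KO sample 2 was the highest, 3.14-fold above *Pich*-KO sample 1, which lay between the *Pich*-WT samples. The log2 fold change was 0.88 (standard error 0.53, 95% interval −0.34 to 2.11, adjusted p = 0.334 from limma). It was 1.70 without *Pich*-KO sample 1 and 0.06 without *Pich*-KO sample 2.

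*Spi1* (ENSMUSG00000002111), the gene of the ETS factor PU.1, lies at chr2:91082390-91115756. It had normalized counts of 6614 and 6775 in *Pich*-KO against 6316 and 5918 in *Pich*-WT samples. The *Pich*-KO samples were the higher ones, by less than the test could separate from the spread. The log2 fold change was 0.13 (standard error 0.08, 95% interval −0.06 to 0.32, adjusted p = 0.352 from limma), so the interval bounds a rise at 0.32 and a fall at −0.06 on the log2 scale. *Irf8*, which encodes the partner of PU.1 in monocytes and dendritic cells, had 7202 and 7052 against 8652 and 6128, a log2 fold change of −0.03 (adjusted p = 0.925 from limma) with overlapping groups.

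*Gfi1* (ENSMUSG00000029275) lies at chr5:107716657-107726036 on the minus strand. It encodes the SNAG-domain repressor that restrains stem cell cycling and is required for neutrophils. Its normalized counts were 391.6 and 312.6 in *Pich*-KO against 704 and 839 in *Pich*-WT samples. Each *Pich*-KO sample was below each *Pich*-WT sample, with a log2 fold change of −1.13 (standard error 0.18, 95% interval −1.55 to −0.72, adjusted p = 0.00371 from limma). *Evi5*, the next gene at higher coordinates, fell by a similar amount, with 263 and 290 against 621 and 578 and a log2 fold change of −1.12 (adjusted p = 0.00251 from limma).

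*Gfi1b* (ENSMUSG00000026815), its paralog in erythroid cells and megakaryocytes, lies at chr2:28609450-28621982 on the minus strand. It had normalized counts of 943 and 1012 in *Pich*-KO against 1010 and 914 in *Pich*-WT samples. The groups overlapped, and the log2 fold change was 0.02 (standard error 0.13, 95% interval −0.28 to 0.33, adjusted p = 0.937 from limma). The 9 tested erythroid markers summed to 28981 and 31571 against 175143 and 133596 in the same libraries, and 8 of the 9 fell.

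*Klf4* (ENSMUSG00000003032), a zinc finger factor of monocyte differentiation, lies at chr4:55527143-55532466 on the minus strand. Its normalized counts were 577 and 451 in *Pich*-KO against 1278 and 1048 in *Pich*-WT samples. Both *Pich*-KO samples were below both *Pich*-WT samples. The log2 fold change was −1.18 (standard error 0.17, 95% interval −1.58 to −0.78, adjusted p = 0.00268 from limma).

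*Egr1* (ENSMUSG00000038418), an immediate early zinc finger factor on chromosome 18, had normalized counts of 6432 and 3391 in *Pich*-KO against 11030 and 8349 in *Pich*-WT samples. *Pich*-KO sample 2 was the lowest, at 0.527 of *Pich*-KO sample 1. The log2 fold change was −1.04 (standard error 0.27, 95% interval −1.65 to −0.42, adjusted p = 0.0316 from limma), and it was −0.58 without *Pich*-KO sample 2. It was the least stable of the 6 calls across the 9 alternatives that used all samples, and passed in 5 of them, against 8 for each of the other genes called lower. With DESeq2 its adjusted p was 0.104.

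**Figure D2:**
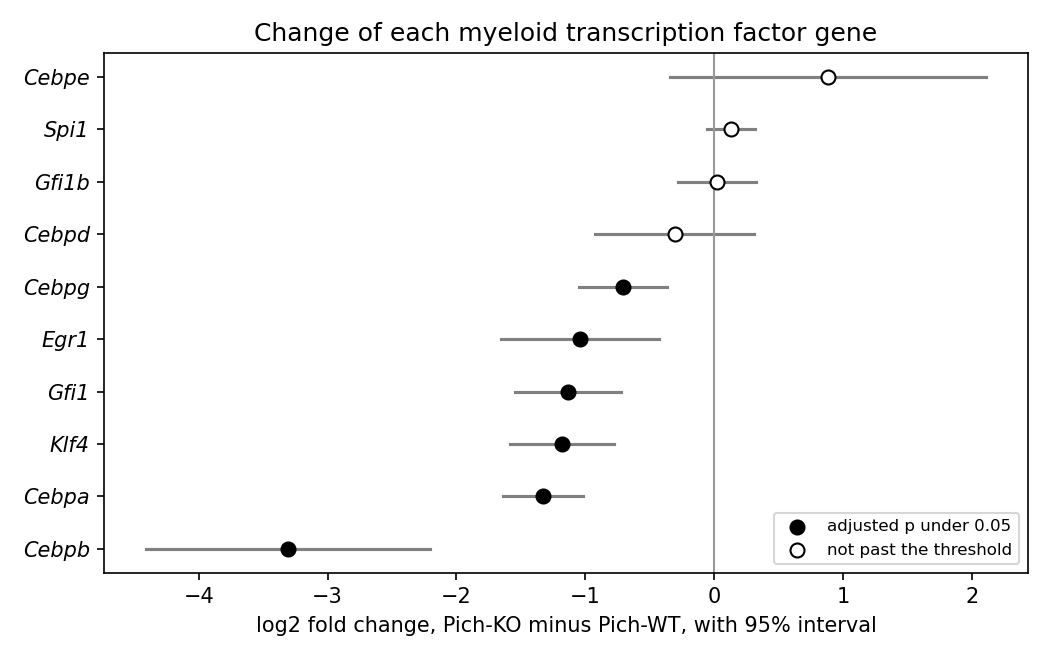
Log2 fold change of each factor gene, *Pich*-KO minus *Pich*-WT, with its 95% interval from limma, where filled points have an adjusted p under 0.05. The 6 filled points run from −3.31 for *Cebpb* to −0.71 for *Cebpg*, and the interval of *Cebpe* is the widest.

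The sequences upstream of 3 of these genes are shown, picked because they held a match to the motif of a factor of the group. RefSeq promoter windows on GRCm38, with 250 bases before and 50 after a start, were available for 6 of the 10 genes in 7 windows. They were searched on both strands. The C/EBP motif was TTGCNNAA and the EGR motif GCGNGGGCG. For PU.1 the core letters GAGGAA were taken. GFI1 and GFI1B were given by the core AAATCA of their shared site. The erythroid GATA site was written as AGATAA, and none of these motifs contains another. Capitals mark the matches in the 250 bases before the start, written 5′ to 3′ on the strand of the gene. The windows are chr4:55532476-55532725 for *Klf4*, chr5:107725806-107726055 for the distal start of *Gfi1* and chr2:28621983-28622232 for *Gfi1b*, all on the minus strand.
Klf4: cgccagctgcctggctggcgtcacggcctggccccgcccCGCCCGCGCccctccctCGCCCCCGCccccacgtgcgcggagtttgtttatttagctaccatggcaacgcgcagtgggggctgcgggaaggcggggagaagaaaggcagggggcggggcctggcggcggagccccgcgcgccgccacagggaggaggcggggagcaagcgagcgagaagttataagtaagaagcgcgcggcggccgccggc
Gfi1: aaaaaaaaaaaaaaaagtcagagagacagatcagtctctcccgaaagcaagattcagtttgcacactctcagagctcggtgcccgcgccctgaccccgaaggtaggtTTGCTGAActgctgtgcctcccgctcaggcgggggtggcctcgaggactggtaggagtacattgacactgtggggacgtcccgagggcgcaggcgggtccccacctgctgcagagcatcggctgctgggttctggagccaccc
Gfi1b: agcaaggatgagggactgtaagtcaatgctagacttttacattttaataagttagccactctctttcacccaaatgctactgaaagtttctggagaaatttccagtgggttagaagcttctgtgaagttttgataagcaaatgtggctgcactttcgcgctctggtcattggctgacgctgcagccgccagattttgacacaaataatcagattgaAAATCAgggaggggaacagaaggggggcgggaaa

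The *Klf4* window held 2 EGR matches, which begin 211 and 194 bases before the start. The *Gfi1* window held 1 C/EBP match, 143 bases before the start, and the *Gfi1b* window 1 GFI1 match, 34 bases before the start. In *Cebpa* 1 EGR match began at base 18 after the start. The windows of *Cebpb*, *Cebpg* and the proximal start of *Gfi1* held no match to any of the motifs. No window held a PU.1 or GATA match. Over all 32851 windows of this length, 5.55% held an EGR match, 10.8% a C/EBP match, 14.0% a GFI1 match, 28.3% a PU.1 match and 11.2% a GATA match. *Klf4*, *Gfi1* and *Cebpa* fell and *Gfi1b* did not pass the test. A match is a run of letters in a short window and is not shown to be a bound site.

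Levels were compared between genes per kilobase of the gene length that the table gives. *Spi1* was the highest of the 10 in both groups, with a mean normalized count per kilobase of 2484 in *Pich*-KO and 2270 in *Pich*-WT samples. *Egr1* followed, at 1095 and 2161, and its range overlapped that of *Spi1* in *Pich*-WT but not in *Pich*-KO samples. *Cebpb* was the third in *Pich*-WT, at 600.8 per kilobase with a range of 277 to 924 that overlapped *Gfi1b*, and the last in *Pich*-KO samples, at 50.7. *Cebpe* was the last in *Pich*-WT, at 92.9, with a range of 61.7 to 124 that overlapped *Cebpd* and *Cebpg*. It was the fourth in *Pich*-KO samples, at 189. There its range of 91.4 to 287 spanned *Cebpa*, *Klf4* and *Gfi1* and overlapped *Cebpd*, so neither place was separated. In *Pich*-KO samples *Cebpa* (171 per kilobase) and *Klf4* (169) overlapped, as did *Gfi1* (110), *Cebpd* (92.6) and *Cebpg* (77.6) with their neighbours in that order.

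Ratios between factors within a sample hardly depend on the size factors, and several such pairs are known as antagonists or as partners. The log2 ratio of *Spi1* to *Cebpa* was 3.84 and 3.95 in *Pich*-KO against 2.47 and 2.40 in *Pich*-WT samples, a difference of 1.46. For *Spi1* over *Gata1*, the myeloid and erythroid antagonists, it was 2.90 and 2.87 against 2.30 and 2.48, a difference of 0.49. *Cebpa* over *Gata2* gave −1.48 and −1.23 against −0.49 and −0.72. The *Pich*-KO samples were thus above the *Pich*-WT samples in both *Spi1* ratios and below them in the *Cebpa* to *Gata2* ratio.

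The log2 ratio of *Gfi1* to its paralog *Gfi1b* was −1.27 and −1.69 in *Pich*-KO against −0.52 and −0.12 in *Pich*-WT samples. The ratio of *Cebpe* to *Cebpa*, the late to the early granulocyte factor, was −2.02 and −0.30 against −3.88 and −2.86. That of *Cebpg* to *Cebpa* was −0.04 and −0.05 against −0.62 and −0.71, so the neighbours on chromosome 7 had nearly equal normalized counts in *Pich*-KO samples and unequal ones in *Pich*-WT samples. All 10 ratios, 8 between factor genes and 2 with a GATA gene, were without overlap. Most share *Spi1* or *Cebpa* and so are not separate results, and among single genes 28.9% and 27.2% were without overlap in the respective directions. An exact two-sided permutation test of 2 against 2 samples gave 0.333 for each, the smallest p this design allows, so none can reach 0.05 alone or after Benjamini-Hochberg adjustment.

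**Figure D3:**
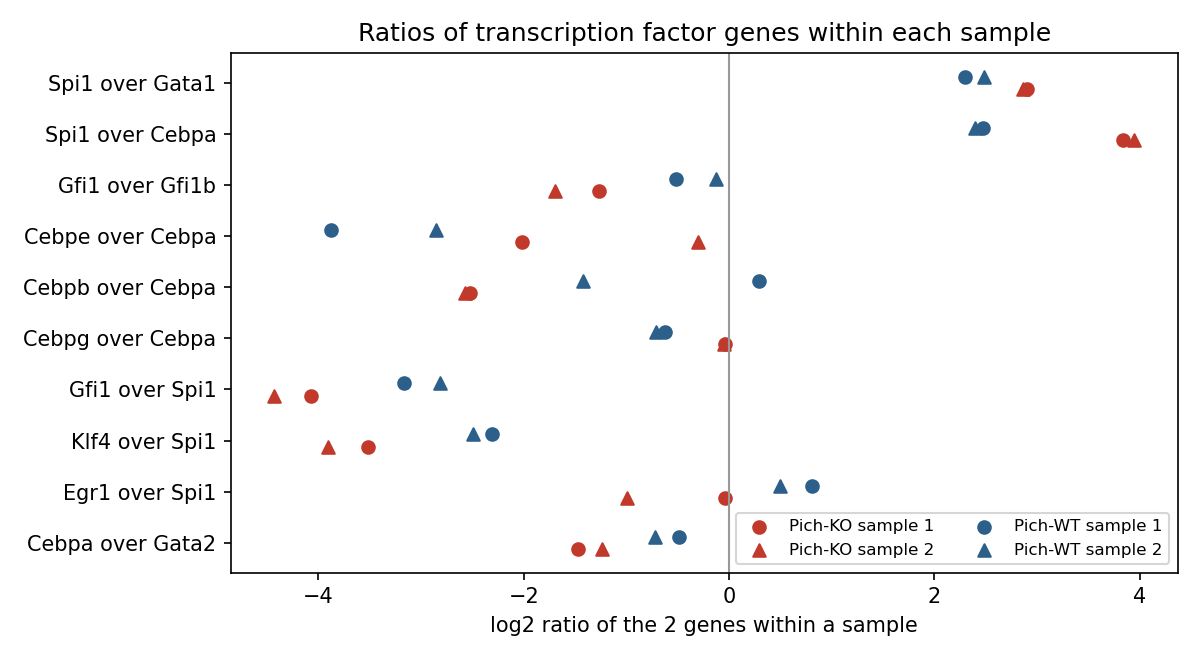
Log2 ratio of pairs of factor genes within each sample (red, *Pich*-KO; blue, *Pich*-WT; circles, sample 1; triangles, sample 2). The *Spi1* to *Cebpa* ratio lies at 3.84 and 3.95 in red and 2.40 and 2.47 in blue, and *Cebpe* to *Cebpa* and *Cebpb* to *Cebpa* have the widest spread within a group.

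Among 8 partners and regulators of C/EBP proteins, 2 rose and 2 fell, with a median log2 fold change of 0.16. *Trib1* and *Trib2*, pseudokinases that direct C/EBPα to degradation, fell by 1.28 and 1.43 on the log2 scale (adjusted p = 0.00132 and 0.0215 from limma), with normalized counts of 459 and 468 against 1284 and 992 for *Trib1*. *Nfil3*, a bZIP factor of innate lymphoid cells, rose by 0.92 and *Atf4*, a stress-response bZIP factor, by 0.43 (adjusted p = 0.0047 and 0.0113 from limma). *Ddit3*, which encodes CHOP, had 219 and 214 against 220 and 224.

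Of 24 other regulators of myeloid cells, 4 rose and 12 fell, with a median log2 fold change of −0.72. *Spic*, the PU.1-related factor of iron-recycling red pulp macrophages, had the largest fall, with a log2 fold change of −4.59 (adjusted p = 2.24e-05 from limma). *Spic* had 45.8 and 42.1 in *Pich*-KO against 955 and 1228 in *Pich*-WT samples. *Etv6* and *Runx1*, both needed by hematopoietic stem cells, rose the most, by 1.66 and 1.46 (adjusted p = 0.000218 and 0.000589 from limma), and *Runx1* had 2905 and 2331 against 854 and 1053. *Cebpa*, a known target of RUNX1, fell in the same samples, and a link between these changes was not tested. The summed macrophage markers fell 19.2-fold in the same comparison, and their part in the fall of *Spic* was not tested.

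The 12 erythroid and megakaryocytic regulators included 1 that rose, *Lyl1* with a log2 fold change of 0.56, and 6 that fell, with a median over the list of −0.43. *Ldb1* and *Zfpm1*, which encode cofactors of GATA1, fell by 1.06 and 0.91 on the log2 scale (adjusted p = 0.0214 and 0.0492 from limma). *Gata2*, the GATA factor of stem and progenitor cells, had 1287 and 1030 against 1597 and 1852, a log2 fold change of −0.58 (adjusted p = 0.0317 from limma). *Gata1* had 884 and 928 against 1282 and 1059, without overlap but with an adjusted p of 0.132 from limma.

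Of 11 genes for the corepressor complexes that GFI1 and GFI1B recruit, 1 rose and 5 fell, with a median log2 fold change of −0.53. *Kdm1a*, the histone demethylase LSD1, had normalized counts of 413 and 258 in *Pich*-KO against 1450 and 1427 in *Pich*-WT samples, a log2 fold change of −2.14 (adjusted p = 0.000485 from limma). *Ajuba*, a LIM protein that binds GFI1, fell by 3.22 on the log2 scale (adjusted p = 0.000245 from limma). *Gse1*, a subunit found with LSD1 and CoREST, rose by 0.78 (adjusted p = 0.0094 from limma). *Hdac1* and *Hdac2* did not pass, at −0.03 and −0.20.

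In the list written for immediate early genes, the class of *Egr1*, 14 of 20 genes fell and 2 rose, with a median log2 fold change of −0.72. The list also holds the corepressor genes *Nab1* and *Nab2*, which are both among the 14. *Nab2*, the EGR-induced corepressor of EGR1, had 44.7 and 22.7 in *Pich*-KO against 236 and 184 in *Pich*-WT samples and fell by 2.67 on the log2 scale (adjusted p = 0.0018 from limma), and *Egr2* fell by 1.75 (adjusted p = 0.00192 from limma). *Fosb* moved the other way, from 391 and 559 in *Pich*-WT to 4759 and 4656 in *Pich*-KO samples, a log2 fold change of 3.33 (adjusted p = 3.35e-05 from limma), and *Jun* rose by 0.43. *Fos* stayed between 32620 and 36100 in the 4 samples.

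**Figure D4:**
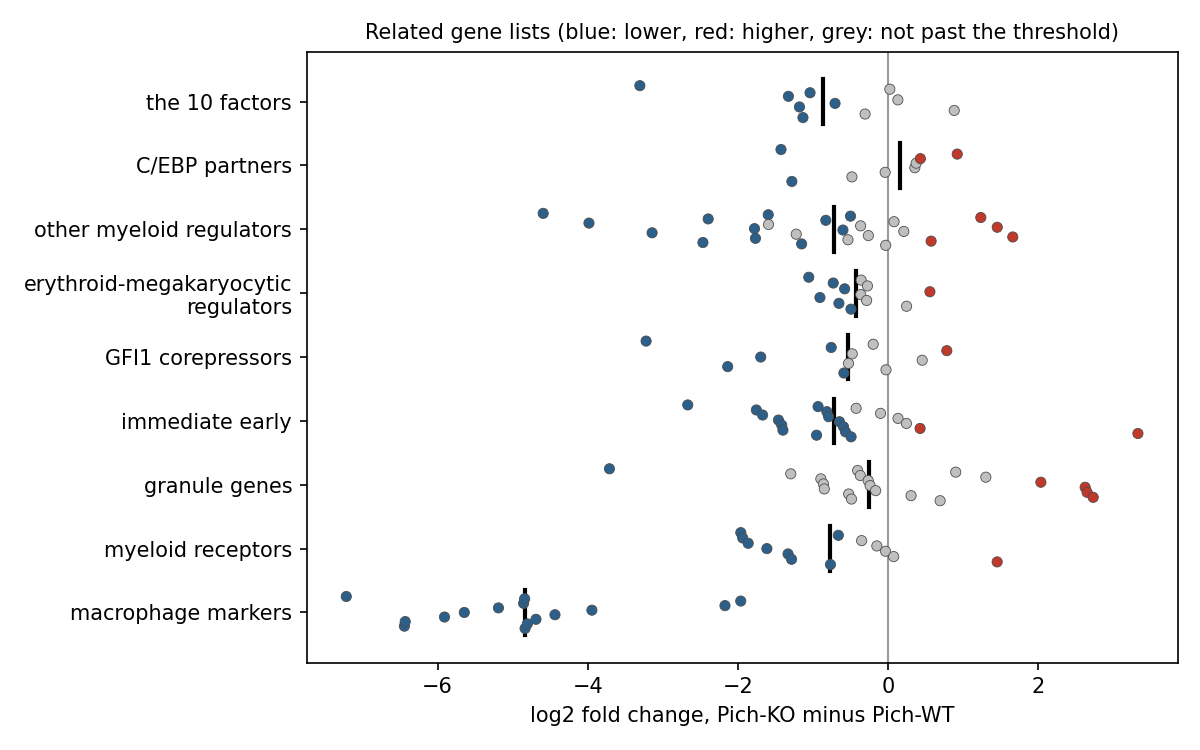
Log2 fold change, *Pich*-KO minus *Pich*-WT, of each gene of the 10 factors and the related lists (red, higher; blue, lower; grey, adjusted p from limma not under 0.05), with a bar at each median. The median is −0.87 for the 10 factors and −0.72 for the immediate early genes, and the macrophage markers lie furthest to the left.

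Myeloid receptor genes fell in 8 of 13 cases and rose in 1, with a median log2 fold change of −0.77. *Csf1r*, the macrophage growth factor receptor, had 7268 and 6111 in *Pich*-KO against 16310 and 17260 in *Pich*-WT samples, a log2 fold change of −1.33 (adjusted p = 0.000111 from limma). *Cd14* and *Fcgr3* fell by 1.96 and 1.94 on the log2 scale (adjusted p = 0.00278 and 0.000481 from limma). *Csf3r*, the granulocyte growth factor receptor, had 1724 and 1572 against 1680 and 1454 with an adjusted p of 0.762 from limma. *Cd33*, a sialic acid-binding receptor, rose by 1.45 (adjusted p = 0.00135 from limma). Macrophages carry several of these receptors, their summed markers fell 19.2-fold in the same libraries, and the part of macrophage RNA in the receptor values was not tested.

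Granule protein genes of neutrophils, the targets of C/EBPα, C/EBPε and GFI1, did not move as one group: 4 of 20 rose and 1 fell, with a median log2 fold change of −0.25. *Mpo*, the myeloperoxidase gene of primary granules, had 54650 and 90490 in *Pich*-KO against 10350 and 12530 in *Pich*-WT samples, a log2 fold change of 2.63 (adjusted p = 0.000151 from limma). *Prtn3* and *Ctsg*, which encode serine proteases of primary granules, and *Cst7*, which encodes a cystatin that inhibits lysosomal proteases, rose by 2.73, 2.65 and 2.04 (adjusted p = 0.000756, 0.00933 and 0.000447 from limma). *Mmp9*, a gelatinase of late granules, fell by 3.71 (adjusted p = 0.0156 from limma), with 4.36 and 39.8 against 170 and 219. The granule sum was 68372 and 127209 in *Pich*-KO against 21019 and 23960 in *Pich*-WT samples, and it was carried by *Mpo* and *Prtn3*. The other 18 genes summed to 6889 and 21447 against 9200 and 9820, so that *Pich*-KO sample 1 was the lowest and the groups overlapped.

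*Pich*-KO sample 2 was above *Pich*-KO sample 1 for 18 of the 20 granule genes, in the same direction as for *Cebpe*. Over all 39186 listed genes, tested or not, this held for 19052. *Elane*, the neutrophil elastase gene, had 730 and 3387 in *Pich*-KO against 722 and 979 in *Pich*-WT samples, and it did not pass (adjusted p = 0.374 from limma). Its log2 fold change turned to −0.20 without *Pich*-KO sample 2. *S100a8* had 556 and 3918 in *Pich*-KO against 1173 and 1215 in *Pich*-WT samples, and *Ltf* had 154 and 739 against 639 and 588. For these genes *Pich*-KO sample 1 was the lowest or near the lowest of the 4, and *Pich*-KO sample 2 was the highest. Summed monocyte markers also differed in this direction between the *Pich*-KO samples, at 3765 and 6574. *Ly6c2* (1068 and 2891) and *F13a1* (1213 and 2201) carried this difference. *Ccr2* (1315 and 1358) and *S100a4* (2.18 and 2.27) differed little, and *Fn1* (167 and 122) went the other way. The sort used Gr-1 among the lineage antigens and a c-Kit gate. The part of monocyte RNA in these values was not tested.

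**Figure D5:**
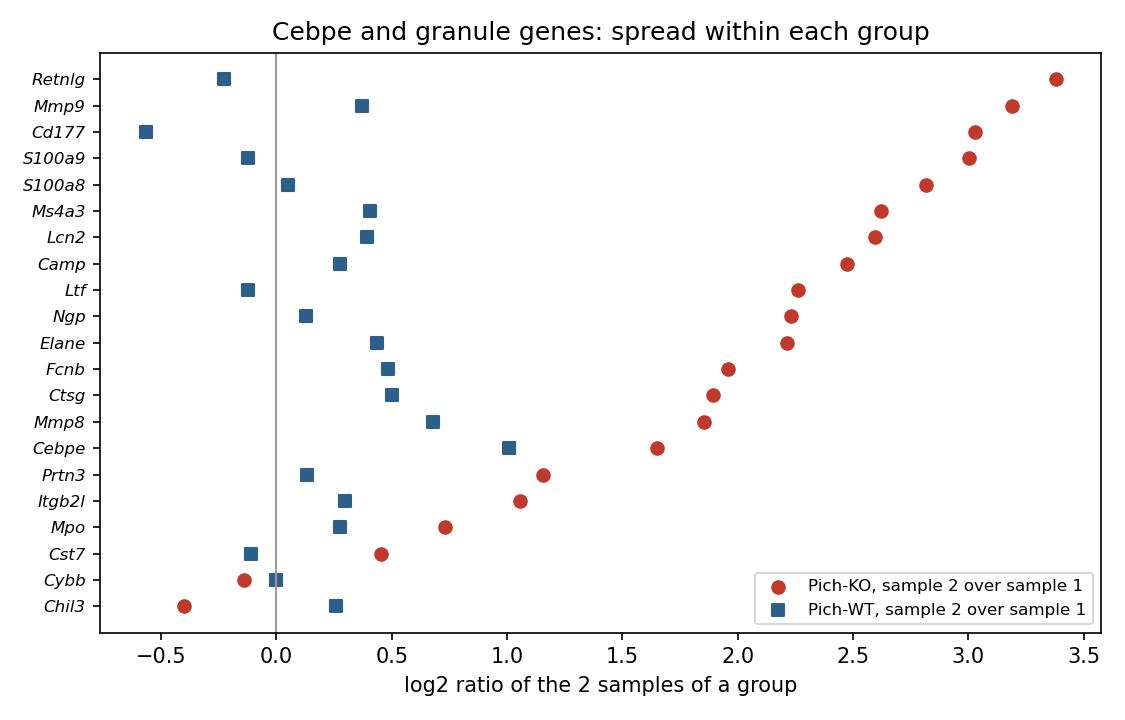
Log2 ratio of sample 2 to sample 1 within *Pich*-KO (red circles) and within *Pich*-WT (blue squares) for *Cebpe* and the 20 granule genes. The red points lie to the right of 0 for *Cebpe* and 18 of the 20 granule genes, while most blue points stay near 0. The blue point of *Cebpe* is the furthest from 0, with *Pich*-WT sample 1 at 0.497 of *Pich*-WT sample 2.

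The genes whose profile over the 4 samples was nearest to each factor were found among 10543 other genes with a mean of at least 100, by the Euclidean distance of centred log2(value + 1) values. *Cebpa* was nearest to *Ctsa*, a lysosomal carboxypeptidase gene, and *Orai1*, a calcium channel gene, at distances of 0.0236 and 0.0272. *Cebpb* had no gene within 0.25, and its nearest were *Olfm1* (0.266) and the endothelial gene *Esm1* (0.515). *Olfm1* had 28.4 and 23.9 in *Pich*-KO against 448 and 171 in *Pich*-WT samples, with the same high *Pich*-WT sample 1 as *Cebpb*. *Cebpe* was nearest to *Gda* (0.175), the guanine deaminase gene, and *Prss57* (0.465), a serine protease gene of granulocyte progenitors.

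*Egr1* was nearest to *Csnk1g3* and *Il1r1*, at 0.104 and 0.129, and *Cebpd* to *Tspo2* and *Sowahc*, at 0.0824 and 0.142. For the other factors both nearest genes were within 0.0604, namely *Tk2* and *Pcmtd2* for *Gfi1*, *Decr2* and *Habp4* for *Klf4*, *Scp2* and *Dicer1* for *Cebpg*, *Dffb* and *Supt20* for *Spi1* and *Itgb3bp* and *Ybx1* for *Gfi1b*. With 4 points a close profile is common: 2111 genes lay within 0.25 of *Spi1* and 1815 of *Gfi1b*, against 147 for *Klf4*, 125 for *Cebpa* and 1 for *Cebpe*.

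The genes beside the other factors gave further values. *Slc7a8*, an amino acid transporter gene beside *Cebpe*, fell from 2756 and 3141 in *Pich*-WT to 459 and 255 in *Pich*-KO samples, a log2 fold change of −3.10 (adjusted p = 0.000177 from limma), so it moved apart from *Cebpe*. *Etf1*, the translation release factor gene beside *Egr1*, rose by 0.57 (adjusted p = 0.00344 from limma) while *Egr1* fell. *Slc39a13*, beside *Spi1*, fell by 0.73 (adjusted p = 0.0312 from limma) and *Tsc1*, beside *Gfi1b*, rose by 0.56 (adjusted p = 0.0426 from limma). Of the protein-coding neighbours that passed the test, *Pepd* and *Evi5* lie beside a factor gene that fell and fell too, and *Etf1* rose beside one that fell.

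The other marker lists had these values in the same libraries. Megakaryocyte markers fell in 3 of 10 cases. *Pich*-WT sample 1 was above *Pich*-WT sample 2 for 8 of the 10 factors and for all 10 megakaryocyte, 9 erythroid and 8 endothelial markers. Over all 39186 listed genes, tested or not, this held for 19417. Of 5 monocyte markers 1 rose, *Ly6c2*, and 1 fell, *Ccr2*, of 8 hepatocyte markers 5 fell, and of 8 B, T and NK cell markers 1 rose and 1 fell. The monocyte sum was 3765 and 6574 in *Pich*-KO against 7069 and 5286 in *Pich*-WT samples, with overlapping groups. Of the 9 LSK genes 1 rose, *Ly6a*, and 4 fell, the stem cell genes *Procr*, *Mecom*, *Hlf* and *Slamf1*. The part of these differences in cell content in the values of the 10 factors was not tested.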

How the data were processed

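The 4 libraries of sorted LSK cells were made from Trizol-extracted RNA with an Illumina TruSeq RNA kit, per the labels. The authors deposited sample values that are a normalized signal, reads on a gene divided by one size factor per sample, and 100% of the values in each sample were whole multiples of one step within 0.001, which gave back the reads. The authors also deposited log2 fold changes, p-values and group means, which were not used. The submitters' processing notes name Bowtie 0.12.2 and the builds mm8 and mm9, but 97.8% of the genes shared with GENCODE M21 have its GRCm38 coordinates. The counter is not given in the sources used here.

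limma (3.58.1, R 4.3.3) with a variance trend was fitted to log2(value + 1) of the 32428 genes whose mean value was 1 or more, without a block, with Benjamini-Hochberg adjustment over all of them at 0.05. All 10 factor genes were tested. Chi-squares per degree of freedom of 20.4 within *Pich*-KO and 11.4 within *Pich*-WT samples showed more than sampling noise, so each sample counted as 1 replicate. The alternatives used edgeR 4.0.16, DESeq2 1.42.0, other scaling and filters, and left out each sample. The procedure was also run on simulated counts that were drawn independently for each gene. That run did not cover differences in cell content or other effects shared by many genes of a sample.

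The factor genes and all lists were chosen with earlier results of these data known. Named genes were the 10 factors, up to 2 at each end of the called genes of a list, genes within 50000 bases of a factor, the 2 nearest profiles, markers, and *Gata1*, *Gata2*, *Irf8*, *Runx1*, *Csf1r*, *Csf3r*, *Mpo* and *Elane*. *Ddit3*, *Hdac1*, *Hdac2*, *Fos*, *S100a8* and *Ltf* were named after their values were seen. One erythroid marker, *Ahsp*, was not matched. A further gene that the rule names is left out of the text.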

Additional observations from a re-analysis of the deposited data

How the results depend on the processing

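Each of the 6 factor genes called lower kept its direction under all alternatives, and *Egr1* did not pass with a pseudocount of 0.1 (adjusted p = 0.0833 from limma), with no filter on the mean (0.116 from limma), with DESeq2 (0.104) or with no variance trend (0.281 from limma). With no variance trend limma called 0 genes higher and 0 lower over all genes, among the 10 factors and in every list. The replicate numbers of the labels were not used as pairs in the main fit. The deviations of same-numbered samples had a correlation of 0.0133 over 10544 genes. With 2 samples per group this cannot show whether same-numbered samples shared a litter or batch. A fit with the replicate block called 1 factor higher, *Cebpe* (adjusted p = 0.0107 from limma), 6 granule genes higher, *Elane* among them (adjusted p = 0.000156 from limma), and 2 lower, and changed no other call of a factor. With a pseudocount of 0.1, 3 erythroid-megakaryocytic regulators, 9 immediate early genes and 0 granule genes were lower. With no filter on the mean these were 0, 9 and 0, and 1 immediate early gene was higher. With at least 10 reads in every sample 0 granule genes were lower, and with scaling to library totals 1 immediate early gene was higher.

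In the fits that left out 1 sample, the lone sample of a group was assumed to vary like the other group. Over all genes 0 to 548 were called higher and 0 to 1193 lower. Among the factors 0 were higher and 0 to 1 lower, among C/EBP partners 0 and 0, among myeloid regulators 0 to 2 and 0 to 8, among erythroid-megakaryocytic regulators 0 and 0 to 1, among GFI1 corepressors 0 and 0 to 3, among immediate early genes 0 to 1 and 0 to 6, among granule genes 0 to 7 and 0, and among myeloid receptors 0 and 0 to 7. Leaving out *Pich*-KO sample 1 gave the highest of these counts. Log2 fold changes that turned, none of which had passed, were *Cebpd* (−0.70 to 0.084 over these fits), *Elane* (−0.20 to 2.01), *Csf3r* (−0.029 to 0.18), *Irf8* (−0.28 to 0.22) and *Gfi1b* (−0.049 to 0.096, and −0.037 with scaling to library totals). The cause was not tested. Every factor had at least 64 reads in each library.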
